A study of Mus musculus with 24 samples.

Results

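The genes described here are 10 transcription factors that pattern the developing lung: Nkx2-1, Foxa1, Foxa2, Foxf1, Sox2, Sox9, Gata6, Tbx2, Tbx4 and Tbx5. They were chosen by name, by matching the gene identifiers of the lung count table to these symbols. No measured value entered this rule, but earlier results of these data were known when the factors were chosen. All 10 were among the 36109 genes listed for the lung, and all 10 were also among the 16819 genes that passed the filter on low counts and were tested there.

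The lung buds from the foregut under the control of Nkx2-1, with Foxa1 and Foxa2 acting beside it throughout the epithelium. As the airways branch, Sox2 marks the proximal epithelium that becomes conducting airway, whereas Sox9, with Gata6, marks the distal tips from which the alveolar epithelium arises. The surrounding mesenchyme expresses Foxf1, a target of Hedgehog signaling, and the T-box factors Tbx2, Tbx4 and Tbx5, which support branching and the growth of the mesenchyme through Fgf10, Bmp4 and Wnt signals.

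RNA from the whole lungs of 12 newborn mice was sequenced, 3 mice in each of 4 groups. The WT-RA and KO-RA mice were kept in room air (21% O2), and the WT-O2 and KO-O2 mice were kept in hyperoxia (85% O2) from postnatal day 1 to 14. Lungs were taken on postnatal day 15, an age at which alveoli are still forming in mice. The GSDMD-KO mice (C57/B6) were homozygous for a CRISPR/Cas9 allele with 38 bases deleted from exon 5 of Gsdmd in every cell, and the WT mice were their littermates from heterozygote matings, so the groups differ in GSDMD throughout the animal and not in the lung alone. Retinas were sequenced from 12 other mice in the same 4 groupings, where the hyperoxia groups had spent postnatal day 7 to 12 in 75% O2 and the days up to collection on postnatal day 18 in room air.

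The lung libraries were of even depth, with 28763661 to 29604254 counts assigned to genes, and the retina libraries held 24863257 to 29093035. Gsdmd was lower in the knockout lungs. It was at 40.6 to 42.3 CPM (counts scaled to library size by TMM factors) in WT-RA and 32.1 to 36.4 in WT-O2. In KO-RA it was at 22.6 to 24.8 and in KO-O2 at 11.7 to 16.3. Reads from outside the deleted bases still count toward it. The paper's qRT-PCR, a different measure, gave an increase with hyperoxia in WT lungs and barely detectable levels in GSDMD-KO lungs. Neither was seen in these counts. Genes of alveolar type 2 cells summed to 14618 to 23495 CPM in the lungs, and Nkx2-1 was abundant there and near 0 in the retinas. The sexes were uneven, since 1 WT-O2 lung, 2 KO-RA lungs, 3 KO-O2 lungs and no WT-RA lung showed Y-linked expression. The KO-O2 lung of replicate 1 stood apart with 181 CPM of liver genes against at most 6.18 CPM in the lungs of the other groups. Erythroid genes summed to 15751 to 18153 CPM in WT-RA and 2919.7 to 4152 in WT-O2, with 7 of 7 lower, and to 12675 to 26853 in KO-RA and 5970.1 to 29928 in KO-O2, with 1 of 7 lower. Thymus genes stayed at or below 11.2 CPM and oesophagus genes at or below 0.483 CPM in sum, with 1 of 5 oesophagus genes at 0 in all lungs.

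Hyperoxia moved the mesenchymal factors down and left the epithelial factors divided. Sox9 rose 3.99-fold in WT and 4.58-fold in GSDMD-KO, Foxa2 rose 1.51-fold and 1.42-fold, and Foxf1, Tbx2, Tbx4 and Tbx5 fell, while Foxa1 and Sox2 did not pass the test in either genotype. Tests were made with the quasi-likelihood method of edgeR, and p-values were adjusted by the Benjamini-Hochberg procedure over all 16819 genes. At an adjusted p under 0.1, 2 of the 10 factors were higher and 4 lower in WT-O2 than in WT-RA, where 24.5% of all genes were higher and 24.7% lower, 49.2% in all. In GSDMD-KO lungs 3 factors were higher and 4 lower in KO-O2 than in KO-RA, against 23.3% and 23.4% of all genes, 46.7% in all. With so many genes changed, 6 and 7 of 10 are not far from the shares among all genes. The same shares are the background for the counts of listed lung genes at this threshold below. Without the KO-O2 lung that held liver transcripts, 6 of 10 passed in GSDMD-KO.

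Sox9 was the only factor that also met the fold change of at least 2, in a background of 11.6% of all genes in WT (5.04% higher) and 10.6% in GSDMD-KO (4.57% higher). The median log2 fold change of the 10 factors was -0.17 in WT and -0.21 in GSDMD-KO, and that of all tested genes was -0.0069 and -0.013. For 7 of the 10 factors the WT-O2 and WT-RA lungs did not overlap, where 49.8% of all genes did not, and the same number was found between KO-O2 and KO-RA, where 52.4% of all genes did not. In whole tissue, a change in the number of cells of a type and a change in the RNA of each cell cannot be told apart, and this holds for every value below.

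**Figure D1:**
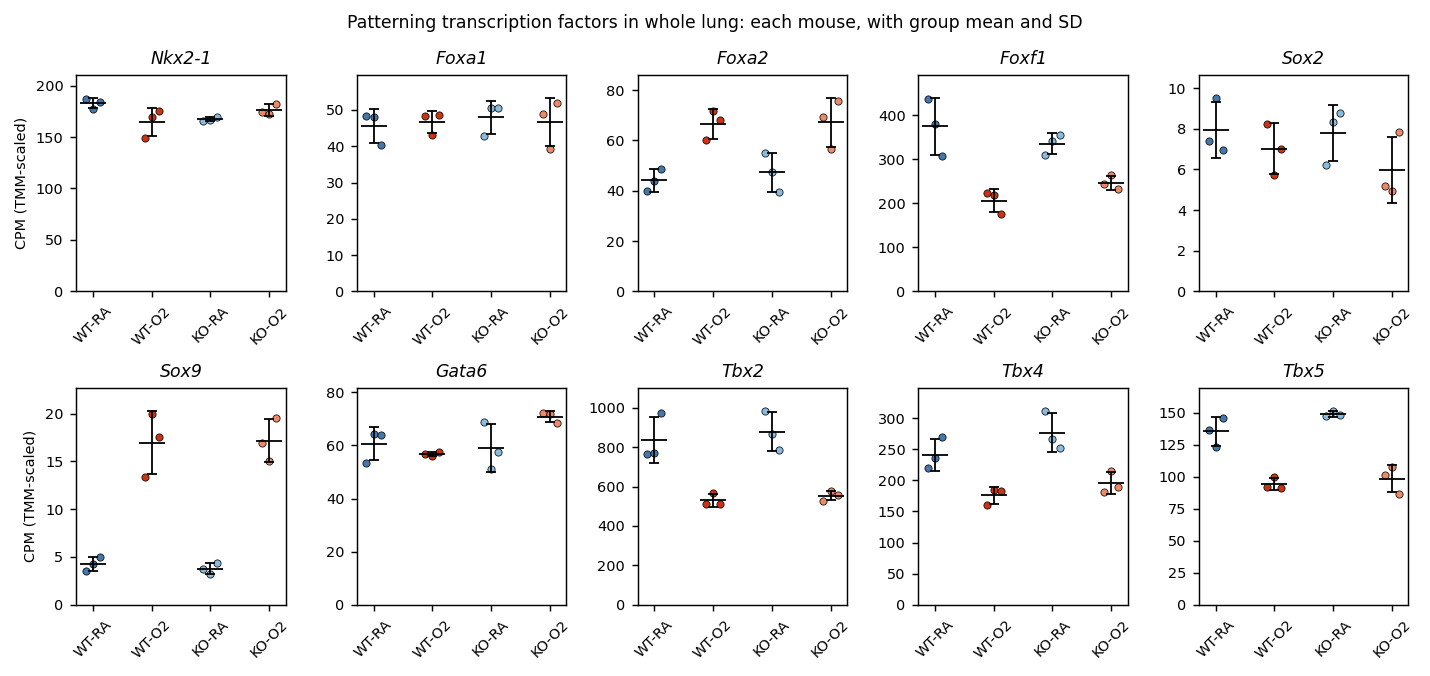
Level of each of the 10 factors in each of the 12 lungs, in CPM scaled by TMM factors, by group (WT-RA, WT-O2, KO-RA and KO-O2, 3 mice each). Points are single mice, horizontal lines are group means and error bars are the SD. The hyperoxia lungs lie above all room air lungs for Sox9 and Foxa2, and below all of them for Foxf1, Tbx2, Tbx4 and Tbx5.

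Sox9, the SOX-family factor of the distal epithelial tips and also of cartilage, had the largest response of the 10. The level of Sox9 (ENSMUSG00000000567) was 3.49, 4.24 and 5.02 CPM in the 3 WT-RA lungs and 13.4, 19.96 and 17.5 CPM in the 3 WT-O2 lungs. It was 3.69, 3.21 and 4.34 CPM in KO-RA and 16.97, 15.05 and 19.5 CPM in KO-O2. Every hyperoxia lung was above every room air lung, with a wide gap between them. The log2 fold change was 2.00 (SE 0.18, adjusted p = 8.92e-07) in WT, a fold change of 3.99, and 2.20 (SE 0.18, adjusted p = 4.85e-07) in GSDMD-KO, a fold change of 4.58.

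Sox2, the SOX-family factor of the proximal airway epithelium, did not follow Sox9. Its levels (Sox2, ENSMUSG00000074637) were 7.40, 9.52 and 6.95 CPM in WT-RA and 8.25, 5.75 and 7.03 CPM in WT-O2, and they overlapped. They were 6.22, 8.34 and 8.78 CPM in KO-RA and 5.18, 4.92 and 7.86 CPM in KO-O2, with 1 KO-O2 lung inside the KO-RA range. The log2 fold change of Sox2 was -0.18 (SE 0.21, adjusted p = 0.505) in WT and -0.38 (SE 0.21, adjusted p = 0.169) in GSDMD-KO. Without the highest KO-O2 lung (replicate 3), the latter was -0.63 with an adjusted p of 0.0316, and without the lowest KO-RA lung (replicate 1) it was -0.51 with an adjusted p of 0.0900. Sox2 had between 139 and 283 counts in a lung, and its spread between mice of a group, with a coefficient of variation of 17.3% to 27.2%, was the widest of the 10 factors.

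The balance of the 2 SOX factors differed between room air and hyperoxia. The ratio of Sox9 to Sox2 CPM within a lung was 0.472, 0.445 and 0.723 in WT-RA and 0.593, 0.384 and 0.494 in KO-RA. In hyperoxia it was 1.62, 3.47 and 2.50 in WT-O2 and 3.28, 3.06 and 2.48 in KO-O2. The ratio was at most 0.723 in the room air lungs and at least 1.62 in the hyperoxia lungs. It is not corrected for the length of the genes, so a ratio of 1 does not mark equal levels. This ratio was chosen after the values of both genes had been seen and was given no test.

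**Figure D2:**
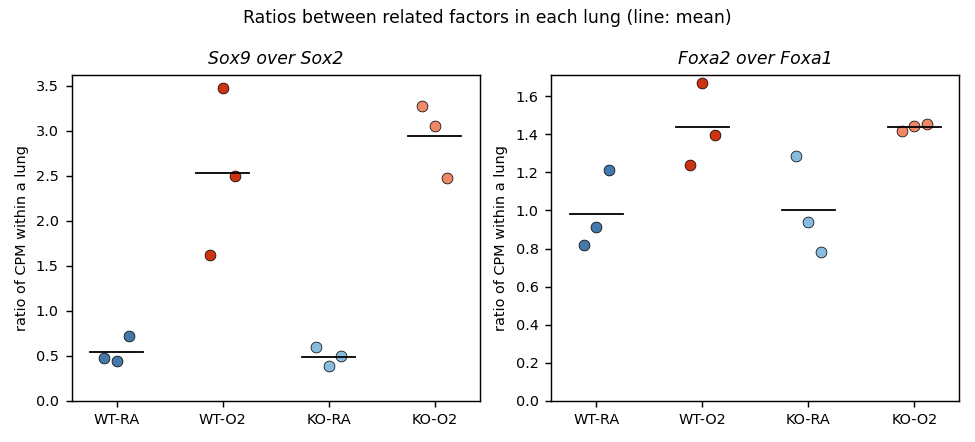
Ratio of Sox9 to Sox2 (left) and of Foxa2 to Foxa1 (right) within each lung, as a ratio of CPM, by group with 3 mice each. Points are single mice and lines are group means. The Sox9 to Sox2 ratio, not corrected for gene length, was at most 0.723 in the 6 room air lungs and at least 1.62 in the 6 hyperoxia lungs, whereas the Foxa2 to Foxa1 ratio was at or below 1.28 in room air and at or above 1.24 in hyperoxia.

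Sox9 also marks chondrocytes, and the large airways carry cartilage. Of 13 cartilage genes 8 were tested, and 3 were higher and 3 lower in WT-O2 at an adjusted p under 0.1, as were 3 and 4 in KO-O2. Col2a1, the main collagen of cartilage, had means of 0.697, 0.238, 1.25 and 0.334 CPM in WT-RA, WT-O2, KO-RA and KO-O2, with log2 fold changes of -1.53 and -1.89 with hyperoxia. Acan, the main proteoglycan of cartilage, was below 1 CPM in all 4 groups. None of the 13 genes was at 0 in all lungs, and their summed level was 53.9 to 84.8 CPM in room air and 57.2 to 75.8 CPM in hyperoxia. Hapln1, a link protein that cartilage shares with other tissues, rose, with means of 3.78, 29.4, 4.86 and 37.9 CPM and log2 fold changes of 2.96 (SE 0.23, adjusted p = 5.94e-07) and 2.96 (SE 0.22, adjusted p = 5.98e-07). The part of cartilage in the values of Sox9 was not tested.

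Foxa2 and Foxa1 are paralogous forkhead factors that open chromatin in the lung epithelium and can replace each other in branching. Of the pair, Foxa2 rose with hyperoxia. The level of Foxa2 (ENSMUSG00000037025) was 39.7, 44.04 and 48.8 CPM in WT-RA and 60.00, 71.9 and 67.99 CPM in WT-O2. It was 55.01, 47.3 and 39.5 CPM in KO-RA and 69.5, 56.6 and 75.7 CPM in KO-O2. The hyperoxia lungs lay above the room air lungs in both genotypes, by a narrow margin in GSDMD-KO, where the lowest KO-O2 lung and the highest KO-RA lung nearly met. The log2 fold change was 0.59 (SE 0.13, adjusted p = 0.00237) in WT and 0.51 (SE 0.13, adjusted p = 0.00678) in GSDMD-KO.

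Foxa1 (ENSMUSG00000035451) was at 48.4, 48.1 and 40.2 CPM in WT-RA and 48.4, 43.04 and 48.6 CPM in WT-O2. In the knockout it was at 42.8, 50.4 and 50.7 CPM in KO-RA and 48.9, 39.3 and 51.98 CPM in KO-O2. The 4 groups overlapped throughout, with log2 fold changes of 0.035 (SE 0.11, adjusted p = 0.830) in WT and -0.037 (SE 0.11, adjusted p = 0.821) in GSDMD-KO. The ratio of Foxa2 to Foxa1 within a lung was 0.821, 0.915 and 1.21 in WT-RA and 1.24, 1.67 and 1.40 in WT-O2. It was 1.28, 0.938 and 0.780 in KO-RA and 1.42, 1.44 and 1.46 in KO-O2. The ratio was higher in hyperoxia within each genotype without overlap, by little in WT, and was likewise given no test.

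The promoters of the pair are shown because the genes are close relatives that responded differently. RefSeq promoter sequences (GRCm38.p6) were matched for 5 of the 10 factors, Nkx2-1, Foxa1, Foxa2, Sox2 and Tbx4, and the 250 bases before the most upstream start listed are given 5′ to 3′ on the strand of the gene. The region is chr12:57546112-57546361 on the minus strand for Foxa1 and chr2:148046970-148047219 on the minus strand for Foxa2. Capitals mark a match to a forkhead motif (TGTTTAC, read on both strands).
Foxa1: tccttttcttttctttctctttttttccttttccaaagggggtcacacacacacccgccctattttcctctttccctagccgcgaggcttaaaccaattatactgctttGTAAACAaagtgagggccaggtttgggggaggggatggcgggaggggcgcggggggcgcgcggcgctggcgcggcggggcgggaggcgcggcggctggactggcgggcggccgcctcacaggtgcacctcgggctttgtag
Foxa2: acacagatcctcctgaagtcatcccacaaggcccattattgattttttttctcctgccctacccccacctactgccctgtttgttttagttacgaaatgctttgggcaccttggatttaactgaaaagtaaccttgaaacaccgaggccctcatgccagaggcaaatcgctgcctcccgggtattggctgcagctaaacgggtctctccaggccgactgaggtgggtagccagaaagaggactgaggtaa
Foxa1 held 1 forkhead match in this window and Foxa2 held 0, and 3.06% of the 27025 promoters of the same length held at least 1. The T-box motif AGGTGTG was found in 5.18% of all promoters on either strand, the SOX motif ACAATGG in 3.04%, the GATA-factor motif AGATAA in 10.2%, the NKX2-1 motif CTCAAG in 13.6% and the core promoter motif TATAAA in 13%. Neither Foxa1 nor Foxa2 held a match to these 5. GC content was 62% in the Foxa1 window and 50.8% in the Foxa2 window. A match of letters does not show that a factor binds there.

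Nkx2-1, the homeodomain factor that sets lung identity and drives the surfactant genes, stayed within a narrow range. It (Nkx2-1, ENSMUSG00000001496) was at 187, 177 and 184 CPM in WT-RA and 149, 169 and 175 CPM in WT-O2. In the knockout it was at 166, 166 and 169 CPM in KO-RA and 174, 172 and 182 CPM in KO-O2. All WT-O2 lungs lay below the WT-RA lungs and all KO-O2 lungs lay above the KO-RA lungs, but the shifts were small, with log2 fold changes of -0.15 (SE 0.075, adjusted p = 0.113) and 0.077 (SE 0.075, adjusted p = 0.446). The WT decrease passed the threshold with DESeq2 (-0.15, adjusted p = 0.0908), with Y-linked expression as a term (-0.18, adjusted p = 0.0920) and without WT-O2 replicate 3 (-0.20, adjusted p = 0.0791).

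Gata6, a zinc-finger factor of the distal epithelium that is also expressed in mesenchyme and endothelium, was at 53.4, 64.3 and 63.98 CPM in WT-RA and 56.7, 56.1 and 57.5 CPM in WT-O2 (Gata6, ENSMUSG00000005836). It was at 68.9, 50.99 and 57.4 CPM in KO-RA and 72.3, 71.9 and 68.5 CPM in KO-O2. The WT groups overlapped, and the 3 KO-O2 lungs lay close together, with 1 KO-RA lung within their range. The log2 fold change was -0.093 (SE 0.10, adjusted p = 0.493) in WT and 0.26 (SE 0.10, adjusted p = 0.0540) in GSDMD-KO, the latter past the threshold by little. It did not pass without KO-O2 replicate 1, the lung with liver transcripts (0.25, adjusted p = 0.133), KO-O2 replicate 2 (adjusted p = 0.111), KO-RA replicate 2 (0.17, adjusted p = 0.242) or KO-RA replicate 3 (adjusted p = 0.138). An antisense transcript overlaps exons of Gata6, and whether the counting used strand is not given in the sources used here.

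General epithelial genes rose in the same lungs as Sox9 and Foxa2, while Foxa1 and Sox2 did not pass the test. Of all genes, 24.5% were higher with hyperoxia in WT and 23.3% in GSDMD-KO at an adjusted p under 0.1. Of 8 epithelial genes, 8 were higher in WT-O2 than in WT-RA and 8 in KO-O2 than in KO-RA. Their median log2 fold changes were 0.61 and 0.59. Their summed level was 765 to 842 CPM in room air and 1172 to 1357 CPM in hyperoxia, and the 2 ranges did not meet. Cdh1, the epithelial cadherin, had means of 212, 365, 201 and 375 CPM in WT-RA, WT-O2, KO-RA and KO-O2. Genes of alveolar type 2 cells went the other way, with 5 of 9 lower in WT and 5 in GSDMD-KO and a summed level of 20795 to 23495 CPM in room air and 14618 to 17908 CPM in hyperoxia. Alveolar type 1 genes were mixed, with 3 of 9 higher and 3 lower in WT, 3 and 2 in GSDMD-KO, and 6197 to 7229 CPM in room air and 5824 to 6951 CPM in hyperoxia.

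Of the airway lists, 1 of 4 club cell genes was higher and 1 lower in WT (1 and 3 in GSDMD-KO), and 2 of 6 ciliated cell genes were higher and 1 lower in WT (0 and 2 in GSDMD-KO). The club cell genes summed to 11008 to 14057 CPM in room air and 7438 to 11162 CPM in hyperoxia. The ciliated cell genes summed to 368 to 446 CPM in room air and 264 to 315 CPM in hyperoxia. A summed level, here and for the other lists, weighs the most abundant genes most. In WT the ciliated cell sum fell although 2 genes were higher and 1 lower. Neuroendocrine genes stayed at or below 9.38 CPM in sum (1 of 2 tested higher in each genotype) and basal cell genes at or below 2.89 CPM (0 of 1 tested changed in WT and 1 of 1 lower in GSDMD-KO). The part of cell composition in the values of Sox9, Foxa2, Nkx2-1 and Gata6 was not tested.

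The 4 mesenchymal factors fell together. Foxf1, the forkhead factor of the lung mesenchyme and the capillary endothelium, was at 437, 379 and 308 CPM in WT-RA and 223, 219.6 and 177 CPM in WT-O2 (Foxf1, ENSMUSG00000042812). In the knockout it was at 309.8, 341 and 356 CPM in KO-RA and 244, 264 and 232 CPM in KO-O2. All hyperoxia lungs were below all room air lungs. Its log2 fold change was -0.86 (SE 0.12, adjusted p = 6.82e-05) in WT, the largest decrease of the 10 factors there, and -0.44 (SE 0.12, adjusted p = 0.0100) in GSDMD-KO.

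Tbx2, a T-box repressor that keeps lung mesenchyme proliferating, was the most abundant of the 10. The counts gave 767, 772 and 974 CPM in WT-RA and 513, 567 and 509 CPM in WT-O2 for Tbx2 (ENSMUSG00000000093). The KO-RA lungs held 983, 868 and 784 CPM and the KO-O2 lungs 529, 575 and 558 CPM. No hyperoxia lung reached the lowest room air lung. The log2 fold changes were -0.66 (SE 0.11, adjusted p = 2.28e-04) in WT and -0.67 (SE 0.11, adjusted p = 2.36e-04) in GSDMD-KO.

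Tbx5, a T-box activator that starts lung budding with Wnt2 and Wnt2b, was at 137, 124 and 146 CPM in WT-RA and 92.3, 100.2 and 91.02 CPM in WT-O2 (Tbx5, ENSMUSG00000018263). It was at 148, 152 and 148 CPM in KO-RA and 101, 108 and 86.7 CPM in KO-O2. The groups were again separate, with log2 fold changes of -0.52 (SE 0.089, adjusted p = 3.15e-04) in WT and -0.60 (SE 0.089, adjusted p = 1.06e-04) in GSDMD-KO.

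Tbx4, which acts with Tbx5 on Fgf10 in the lung mesenchyme and lies beside Tbx2 with 0 protein-coding genes between them, fell as well. Tbx4 (ENSMUSG00000000094) was at 219, 235 and 269.5 CPM in WT-RA and 159.8, 185 and 184 CPM in WT-O2, and at 311, 267 and 251 CPM in KO-RA and 182, 215 and 189 CPM in KO-O2. All hyperoxia lungs were below all room air lungs, and the highest KO-O2 lung came close to the lowest WT-RA lung. The log2 fold change was -0.46 (SE 0.11, adjusted p = 0.00336) in WT and -0.50 (SE 0.11, adjusted p = 0.00188) in GSDMD-KO. Its promoter is shown because it is the only one of the 4 falling factors with a matched sequence, the 250 bases before the start at chr11:85896515-85896764 on the plus strand of GRCm38.p6, with capitals for a match to the core promoter motif TATAAA on the reverse strand.
Tbx4: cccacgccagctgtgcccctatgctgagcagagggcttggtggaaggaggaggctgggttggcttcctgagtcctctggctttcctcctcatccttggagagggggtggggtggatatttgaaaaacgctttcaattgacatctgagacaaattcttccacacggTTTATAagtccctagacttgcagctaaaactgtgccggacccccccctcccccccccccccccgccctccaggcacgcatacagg
Tbx4 held 1 match to the letters TATAAA, on the reverse strand, and 0 matches to the forkhead, T-box, SOX, GATA-factor and NKX2-1 motifs. The match does not show that these bases work as a core promoter element. The promoters of Nkx2-1 and Sox2 held 0 matches to all 6 motifs. For Sox2, the bases just after the start used were found in 0 GENCODE transcripts of the gene. Its window may therefore not lie directly before a start in that annotation.

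The decreases of Foxf1, Tbx2, Tbx4 and Tbx5 and the increases of Sox9 and Foxa2 passed the threshold in both genotypes in each of the 18 alternative fits made for each comparison, which include leaving out any 1 lung.

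**Figure D3:**
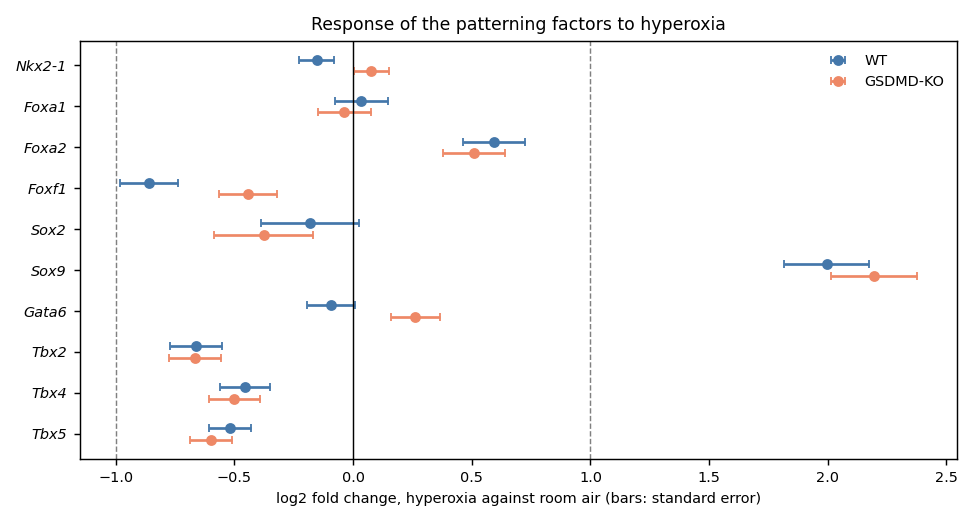
Log2 fold change of each of the 10 factors between hyperoxia and room air lungs, in WT (blue) and GSDMD-KO (orange), 3 against 3 mice each. Points are the estimates, bars are their standard errors and dashed lines mark a 2-fold change. Sox9 alone lies past a dashed line, at 2.00 in WT and 2.20 in GSDMD-KO.

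Markers of several stromal and vascular cell types fell with the mesenchymal factors. Of all genes, 24.7% were lower in WT and 23.4% in GSDMD-KO at an adjusted p under 0.1. Of 7 alveolar fibroblast genes 5 were lower in WT and 4 in GSDMD-KO, and their summed level was 3096 to 3943 CPM in room air and 1851 to 2162 CPM in hyperoxia. Pdgfra, the receptor that marks these fibroblasts and alveolar myofibroblasts, had means of 271, 59.02, 273 and 48.04 CPM in WT-RA, WT-O2, KO-RA and KO-O2. Of 12 endothelial genes 8 were lower and 1 higher in WT, 6 and 1 in GSDMD-KO, with 5104 to 6202 CPM in room air and 3715 to 4569 CPM in hyperoxia. Of 5 pericyte genes 4 were lower and 1 higher in each genotype, with 719.9 to 893 CPM in room air and 491 to 604 CPM in hyperoxia.

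Of 8 smooth muscle genes 5 were higher and 1 lower in WT, 3 and 0 in GSDMD-KO, with 748 to 1235 CPM in room air and 842 to 1691 CPM in hyperoxia. Of 5 adventitial fibroblast genes 1 was higher and 1 lower in WT, 2 and 1 in GSDMD-KO, with 535 to 648 CPM in room air and 665 to 840.3 CPM in hyperoxia. Tbx5 and Gata6 are also expressed in the heart, and of 10 cardiomyocyte genes 4 were lower in WT and 2 in GSDMD-KO, with 169.8 to 430.2 CPM in room air and 156 to 255 CPM in hyperoxia. No gene of these lists was at 0 in all lungs, and their part in the decreases was not tested.

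**Figure D4:**
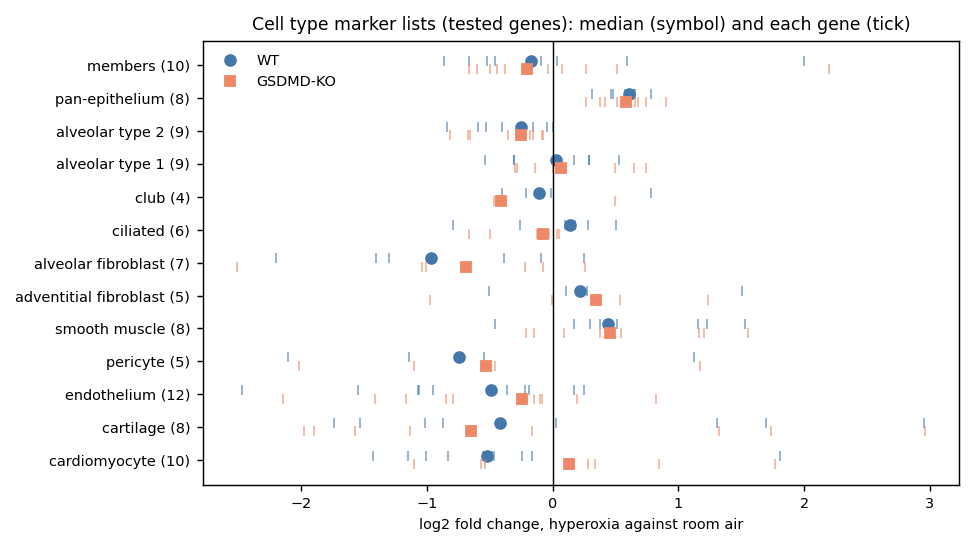
Log2 fold change between hyperoxia and room air lungs of the 10 factors and of 12 cell type marker lists, with the number of tested genes in brackets, in WT (circles) and GSDMD-KO (squares). Large symbols are list medians and ticks are single genes. The medians were 0.61 and 0.59 for general epithelial genes and -0.96 and -0.69 for alveolar fibroblast genes.

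Levels of different genes were compared per kilobase of exon (CPM per kb of merged exons). In WT-RA lungs the order was Tbx2 at 231 ± 32.4 (mean ± SD, n = 3), Foxf1 at 155 ± 26.8, Tbx4 at 70.95 ± 7.56, Nkx2-1 at 64.4 ± 1.80, Tbx5 at 29.00 ± 2.43, Foxa2 at 18.6 ± 1.93, Foxa1 at 13.7 ± 1.40, Gata6 at 9.30 ± 0.953, Sox2 at 3.87 ± 0.668 and Sox9 at 1.03 ± 0.185 CPM per kb. Of the neighbours in this order, the single lungs overlapped for Tbx4 and Nkx2-1 alone, and Foxa1 and Gata6 changed places when the length of the longest transcript was used instead. KO-RA lungs had the same order.

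Hyperoxia changed the order at 3 places. In WT-O2 lungs Nkx2-1, at 57.9 ± 4.89 CPM per kb, came before Tbx4, at 51.8 ± 4.13, with overlapping lungs. Foxa2, at 28.1 ± 2.55, came before Tbx5, at 20.2 ± 1.06, without overlap. Sox9, at 4.10 ± 0.802, came before Sox2, at 3.41 ± 0.609, with overlapping lungs. The KO-O2 lungs had the WT-O2 order and the same overlaps. Tbx2 stayed first, at 146 ± 8.94 in WT-O2 and 153 ± 6.45 in KO-O2, and the levels of the most and least abundant factor came closer.

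The second question of the study was whether the loss of GSDMD changes these levels or the response to hyperoxia. At an adjusted p under 0.1, 0 of the 10 factors differed between KO-O2 and WT-O2 lungs, where 0.0416% of all genes did by edgeR's quasi-likelihood test, and DESeq2 also gave 0. At an unadjusted p under 0.05 there was 1 factor, Gata6, in a background of 6.21%. Gata6 was higher in KO-O2, by 0.32 on the log2 scale (SE 0.10, adjusted p = 0.568 with edgeR), and all 3 KO-O2 lungs were above all 3 WT-O2 lungs. Foxf1 was the only other factor without overlap, 0.26 higher in KO-O2 (SE 0.12, adjusted p = 0.808), and 12.2% of all genes did not overlap.

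Sox9 differed by 0.018 (SE 0.17) between KO-O2 and WT-O2 lungs and Foxa2 by 0.014 (SE 0.13). Tbx2, Tbx4 and Tbx5 were 0.065 (SE 0.11), 0.15 (SE 0.11) and 0.060 (SE 0.089) higher in KO-O2 than in WT-O2, which did not pass the test.

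In room air, 0 of 10 factors differed between KO-RA and WT-RA at an adjusted p under 0.1 with edgeR or DESeq2. With edgeR, 0 had an unadjusted p under 0.05. The edgeR shares of all genes were 0.488% and 10.5%. Nkx2-1 and Tbx5 did not overlap between the 2 groups, where 15.2% of all genes did not. Nkx2-1 was -0.13 in KO-RA against WT-RA (log2, SE 0.075, adjusted p = 0.586) and Tbx5 was 0.14 (SE 0.088, adjusted p = 0.641).

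The interaction tests whether hyperoxia acted differently in the 2 genotypes. No factor passed at an adjusted p under 0.1 with edgeR or DESeq2. With edgeR, 0.00595% of all genes passed. The paper, with DESeq2 and its own thresholds, reported more genes in the same lungs than edgeR gave here. It did so in its interaction analysis, a likelihood ratio test, and between hyperoxia-exposed GSDMD-KO and WT lungs. The share of all genes that passes therefore depends on the method and the thresholds. In a background of 6.72% of all genes, edgeR gave 3 factors at an unadjusted p under 0.05. These were Foxf1, whose decrease was 0.42 smaller on the log2 scale in GSDMD-KO (SE 0.17, adjusted p = 0.682 with edgeR), Gata6 at 0.36 (SE 0.14, adjusted p = 0.682 with edgeR) and Nkx2-1 at 0.23 (SE 0.11, adjusted p = 0.730 with edgeR). The interaction of Sox9 was 0.20 (SE 0.25) and that of Tbx2 was -0.004 (SE 0.15). Genotype and Y-linked expression were unevenly mixed over the groups. With Y-linked expression as a term, Gata6 was 0.42 higher in KO-O2 than in WT-O2 (SE 0.12, adjusted p = 0.434 with edgeR), and the interactions of Foxf1, Gata6 and Nkx2-1 were 0.42, 0.36 and 0.23. Without the KO-O2 lung that held liver transcripts, the interactions were 0.42, 0.34 and 0.24, and Gata6 was 0.30 higher in KO-O2.

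The signals that the factors answer to or control were read from a list of 25 ligands, receptors and targets of the Hedgehog, FGF, Wnt, BMP and retinoic acid pathways. In WT-O2 against WT-RA, 11 were higher and 5 lower at an adjusted p under 0.1, against 24.5% and 24.7% of all genes. In KO-O2 against KO-RA, 14 were higher and 4 lower, against 23.3% and 23.4% of all genes. The median log2 fold change of the list was 0.24 in WT and 0.48 in GSDMD-KO, against -0.0069 and -0.013 over all genes.

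Gli2 and Gli3, the transcription factors at the end of Hedgehog signaling, had the second and the third smallest p of the list in WT. Gli2 had means of 17.5, 36.6, 24.3 and 39.00 CPM in WT-RA, WT-O2, KO-RA and KO-O2, with log2 fold changes of 1.06 (SE 0.12, adjusted p = 5.28e-06) and 0.68 (SE 0.11, adjusted p = 2.83e-04). Gli3 had means of 8.02, 14.4, 10.96 and 15.6 CPM, with 0.84 (SE 0.12, adjusted p = 5.97e-05) and 0.51 (SE 0.12, adjusted p = 0.00320). After these values had been seen, the list was divided by pathway, and all 6 Hedgehog genes were higher at an adjusted p under 0.1 in both genotypes. They were the ligand Shh, the receptor Ptch1, the decoy receptor Hhip and Gli1, Gli2 and Gli3. Foxf1, a known target of this pathway, fell in the same lungs.

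Lef1, a transcription factor that carries out Wnt signaling, had the smallest p of the list. It fell, with means of 18.1, 5.65, 20.6 and 7.28 CPM in the 4 groups in the same order and log2 fold changes of -1.68 (SE 0.12, adjusted p = 1.21e-07) and -1.50 (SE 0.12, adjusted p = 4.00e-07). The 3 genes Etv4, Grem1 and Aldh1a2, named after their values were seen, had the largest increases of the list in both genotypes. Etv4, a target of FGF signaling in the distal tips where Sox9 is active, had log2 fold changes of 2.31 (SE 0.53, adjusted p = 0.00725) and 2.38 (SE 0.53, adjusted p = 0.00663). Grem1, a BMP antagonist, had 1.94 (SE 0.50, adjusted p = 0.00970) and 2.31 (SE 0.51, adjusted p = 0.00442). Aldh1a2, which makes retinoic acid, had 1.90 (SE 0.38, adjusted p = 0.00299) and 1.84 (SE 0.38, adjusted p = 0.00356). Fgf10, the mesenchymal ligand downstream of Tbx4 and Tbx5, did not pass in either genotype, at 0.27 (SE 0.14, adjusted p = 0.141) and -0.12 (SE 0.14, adjusted p = 0.523), and neither did Bmp4, at -0.031 (SE 0.17, adjusted p = 0.902) and 0.24 (SE 0.17, adjusted p = 0.279). Wnt2b, a partner of Tbx5, fell, by 0.69 (SE 0.20, adjusted p = 0.0134) and 0.78 (SE 0.20, adjusted p = 0.00578) on the log2 scale.

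**Figure D5:**
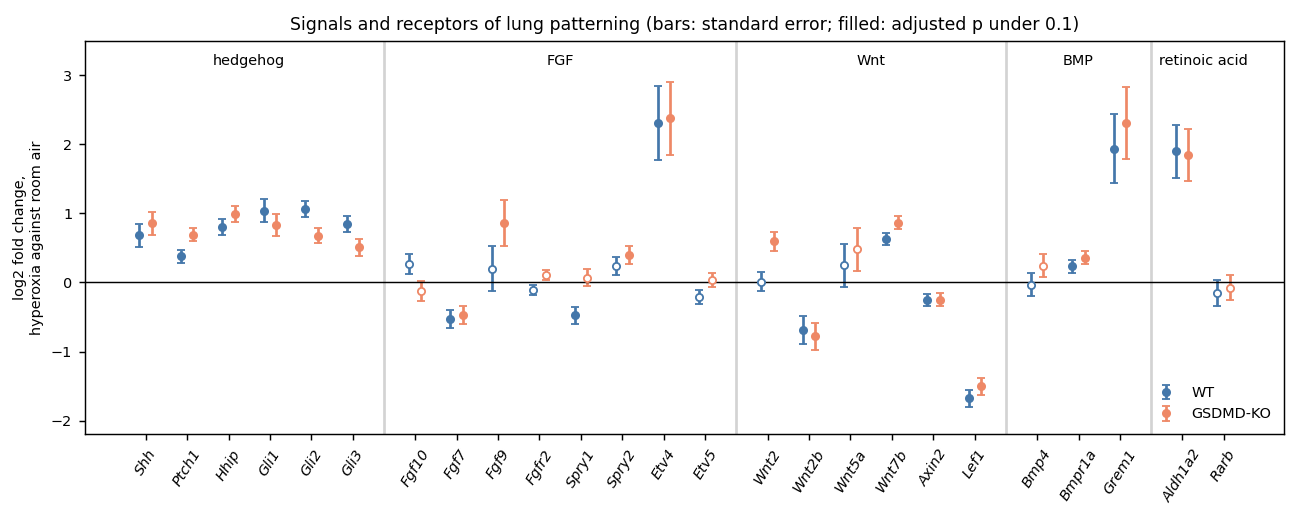
Log2 fold change between hyperoxia and room air lungs of 25 patterning signals, grouped by pathway, in WT (blue) and GSDMD-KO (orange), 3 against 3 mice each. Bars are standard errors and filled points have an adjusted p under 0.1. The 6 Hedgehog genes, grouped after the values were seen, are all filled and above 0 in both genotypes. Lef1 is the lowest point, at -1.68 and -1.50.

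By genotype, 0 of the 25 signals differed between KO-O2 and WT-O2 at an adjusted p under 0.1 with edgeR. At an unadjusted p under 0.05, 3 did. The edgeR shares of all genes were 0.0416% and 6.21%. DESeq2 gave 1, the Hedgehog receptor Ptch1, at 0.39 (SE 0.10, adjusted p = 0.0347 with DESeq2 and 0.359 with edgeR). All 25 estimates were above 0 in this comparison, where 49.8% of all genes were, with a median of 0.11. The number above 0 ranged from 20 to 25 over the 18 alternative fits. All 25 signals were measured in the same 3 mice of each group, so their signs are not independent. The shared direction was not tested. Y-linked expression was present in 3 of 3 KO-O2 lungs and 1 of 3 WT-O2 lungs. Between KO-RA and WT-RA edgeR gave 0 of 25, with 5 at an unadjusted p under 0.05 (10.5% of all genes). DESeq2 gave 3, Gli2, Gli3 and Fgf10, each higher in KO-RA, by 0.47, 0.45 and 0.48 on the log2 scale. The share of all genes passing with DESeq2 was not counted, so the DESeq2 calls among the signals have no background. No signal passed the interaction test with either tool. With edgeR, 4 had an unadjusted p under 0.05, where 6.72% of all genes did.

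Other transcription factors of the lung moved in both directions. Of 30 listed, 29 were tested. In WT, 8 were higher and 9 lower with hyperoxia at an adjusted p under 0.1, against 24.5% and 24.7% of all genes. In GSDMD-KO, 8 were higher and 6 lower, against 23.3% and 23.4%. The 3 listed factors with the smallest p in WT all fell. Sox11, a SOX factor of immature mesenchyme and neurons, had log2 fold changes of -2.57 (SE 0.12, adjusted p = 2.16e-09) and -2.05 (SE 0.12, adjusted p = 1.56e-08), the opposite of its relative Sox9. Sox17, a SOX factor of endothelium, had -1.63 (SE 0.11, adjusted p = 3.93e-08) and -1.74 (SE 0.11, adjusted p = 2.70e-08). Foxp1, a forkhead factor of the lung epithelium and mesenchyme, had -1.02 (SE 0.087, adjusted p = 5.38e-07) and -0.99 (SE 0.087, adjusted p = 8.72e-07). Tcf21, a mesenchymal factor of the lung named here for comparison with Foxf1 and Tbx4 and after its values were seen, had -0.76 (SE 0.13, adjusted p = 3.58e-04) and -0.93 (SE 0.13, adjusted p = 7.60e-05).

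The closest relatives of the 10 factors were mostly scarce. Of 13 listed 10 were tested, and 2 were higher and 4 lower in WT (3 and 2 in GSDMD-KO). Sox8, of the same SOX subgroup as Sox9, fell where Sox9 rose, from 1.22 to 0.329 CPM in WT, with log2 fold changes of -1.88 (SE 0.42, adjusted p = 0.00237) and -1.65 (SE 0.43, adjusted p = 0.00688). Tbx3, which lies beside Tbx5 and is a close relative of Tbx2, fell in WT at -0.43 (SE 0.11, adjusted p = 0.00575), and in GSDMD-KO it was -0.19 (SE 0.11, adjusted p = 0.197). Foxf2 and Gata4 were named after their values were seen. Foxf2, the relative of Foxf1, was -0.61 (SE 0.19, adjusted p = 0.0239) and -0.29 (SE 0.19, adjusted p = 0.262). Gata4, the relative of Gata6, rose, with means of 1.07, 4.93, 1.34 and 4.04 CPM in the 4 groups and log2 fold changes of 2.20 (SE 0.55, adjusted p = 0.00749) and 1.58 (SE 0.54, adjusted p = 0.0362).

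Tbx1, a T-box factor of pharyngeal development, moved in opposite directions. It had means of 19.3, 26.8, 24.4 and 19.2 CPM in WT-RA, WT-O2, KO-RA and KO-O2, with log2 fold changes of 0.48 (SE 0.13, adjusted p = 0.00721) in WT and -0.35 (SE 0.13, adjusted p = 0.0399) in GSDMD-KO. The interaction was -0.83 (SE 0.18, adjusted p = 0.282) with edgeR and -0.83 (SE 0.20, adjusted p = 0.0152) with DESeq2. Of these relatives and the other lung factors, 0 passed in a genotype comparison or the interaction with edgeR. DESeq2 gave Tbx1 between KO-O2 and WT-O2 and Irx2 between KO-RA and WT-RA. In the interaction DESeq2 gave Tbx1, Irx2, Meis1 and Cebpa. The share of all genes passing with DESeq2 was not counted, so these DESeq2 calls have no background to be read against. At an unadjusted p under 0.05 edgeR gave 2 of 10 relatives and 7 of 29 other factors between KO-O2 and WT-O2, where 6.21% of all genes were under it. The counts were 3 of 10 and 5 of 29 between KO-RA and WT-RA (10.5% of all genes), and 2 of 10 and 6 of 29 in the interaction (6.72% of all genes). The long noncoding RNAs Fendrr and Sox2ot, which neighbour Foxf1 and Sox2, were not among the genes listed for the lung and could not be analysed.

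The genes whose levels followed each factor most closely were found among 12187 genes of at least 5 CPM, by Pearson's r of log2 CPM over the 12 lungs, which come from both exposures, so that any gene with a large response to hyperoxia can have a high r. For Sox9 they were Cma1 (0.992), Me1 (0.991) and Commd3 (0.989). For Foxa2 they were Gm20390 (0.984), Irx3 (0.958) and Lrrc29 (0.948), and Irx3 is itself a homeobox factor of the lung epithelium. For Foxf1 they were Tmtc2 (0.970), Dstyk (0.970) and Syne2 (0.968), for Tbx2 Sema6c (0.994), Mfap2 (0.989) and Rundc3a (0.985), for Tbx4 Fam171a2 (0.970), Camk2b (0.968) and Tead2 (0.956) and for Tbx5 Mgat1 (0.977), Ehd3 (0.976) and Dock6 (0.972). The factors that changed less had weaker likenesses, with Ap1s3 (0.836), Rab38 (0.824) and Klhl3 (0.805) for Nkx2-1, Tecpr2 (0.903), Nufip2 (0.899) and Kpna4 (0.877) for Foxa1, Crnkl1 (0.920), Exoc8 (0.916) and Lrrc23 (0.897) for Sox2 and Mrps18c (0.877), Gpsm2 (0.846) and Cxxc5 (0.846) for Gata6. These are descriptions and were not tested.

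In the retina, 6 of the 10 factors passed the filter on low counts. Nkx2-1, Foxa1, Foxa2 and Tbx4 were not tested there, with at most 8 counts in a library. Sox2 and Sox9, which mark progenitors and Müller glia in the eye, and Tbx2, which patterns the dorsal retina, carried most of the counts. Rlbp1, a gene of Müller glia and pigment epithelium, had a mean of 462 CPM in the WT-RA retinas. Of all retina genes, 3.11% were higher and 2.05% lower with hyperoxia in WT at an adjusted p under 0.1. The shares were 4.38% and 3.44% in GSDMD-KO. Of 6 Müller glia genes, 0 were higher and 3 lower in WT-O2 than in WT-RA retinas, and 1 and 2 in KO-O2 against KO-RA. The part of Müller glia in the values of Sox9 was not tested.

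With thresholds on the adjusted p and on a 2-fold change, edgeR and DESeq2 called 0 of 6 factors in the retinas of either genotype. The edgeR backgrounds were 2.04% in WT-O2 against WT-RA and 2.19% in KO-O2 against KO-RA retinas. Without the fold threshold 1 of 6 passed in WT (background 5.16%) and 0 in GSDMD-KO (background 7.82%). Before adjustment, 2 factors in WT and 0 in GSDMD-KO were under 0.05, against 17.4% and 20.3% of all genes.

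The factor that passed was Sox9, at 8.20, 10.6 and 8.65 CPM in WT-RA retinas and 11.9, 22.2 and 13.8 CPM in WT-O2 retinas. It was at 10.2, 8.41 and 8.86 CPM in KO-RA and 8.71, 9.40 and 10.3 CPM in KO-O2 retinas. The WT groups did not overlap and the GSDMD-KO groups did. The log2 fold change was 0.81 (SE 0.21, adjusted p = 0.0733) in WT and 0.047 (SE 0.21, adjusted p = 0.935) in GSDMD-KO. The WT call depended on single retinas and on the model. Without WT-O2 replicate 2 it was 0.49 with an adjusted p of 0.218. It did not pass in 7 of the 12 fits that left out 1 retina, with only the 2 groups in the fit (0.82, adjusted p = 0.162) or with Y-linked expression as a term (0.58, adjusted p = 0.363). Y-linked expression was present in all 3 retinas of each room air group and in 1 retina of each hyperoxia group. The interaction in the retina was -0.76 (SE 0.30, adjusted p = 0.399).

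Sox2 was at 17.6, 18.98 and 17.4 CPM in WT-RA and 19.6, 19.96 and 18.3 CPM in WT-O2 retinas, and at 20.7, 18.8 and 15.9 and 17.2, 25.5 and 21.6 CPM in KO-RA and KO-O2, with overlap between groups. Tbx2 was at 68.4, 69.6 and 50.97 CPM in WT-RA and 49.8, 41.4 and 46.3 CPM in WT-O2 retinas, -0.46 on the log2 scale (SE 0.18, adjusted p = 0.224). In KO-RA and KO-O2 retinas it was at 67.6, 53.5 and 47.5 and 50.7, 78.2 and 71.6 CPM, 0.25 (SE 0.18, adjusted p = 0.486). Tbx5 ranged from 2.84 to 5.06 CPM over the 12 retinas. Foxf1 had at most 13 counts and Gata6 at most 46 counts in a retina, where differences were hardly detectable at this depth.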

How the data were processed

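Total RNA of 12 whole lungs and 12 retinas, each from a separate mouse, was sequenced. The authors deposited estimated counts per gene for each tissue, made with kallisto and summarised per gene with tximport. The transcripts are given as GRCm39 in the methods of the study and as mm10 in the submitters' processing notes, so no coordinates were taken from the tables. Whether the counting used strand is not given in the sources used here. Groups came from the sample labels, and the treatment text there, which describes cultured cells, was not used.

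Counts were rounded to whole numbers, genes with low counts were removed with filterByExpr, and TMM factors were computed. One quasi-likelihood model per tissue (edgeR 4.0.16 in R 4.3.3) was fitted to the 12 samples with 1 term per group, and p-values were adjusted by Benjamini-Hochberg over the 16819 lung and 19173 retina genes tested. A call required an adjusted p under 0.1, a p under 0.05 and a change of at least 2-fold, or, in the interaction, only the first of these. The SE is the log2 fold change divided by the square root of F. CPM used TMM-scaled library sizes, and depth was even, so counting error limits Sox2 and Sox9 most. Symbols were joined by Ensembl identifier, which named 35816 of 36109 lung and 35968 of 36595 retina genes, and exon lengths came from the GENCODE annotation. Y-linked expression was called present above 20 CPM.

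The 10 factors and all gene lists were chosen with earlier results of these data known. Named genes were the 10 factors, of the lists of signals, other factors and relatives the 3 genes with the smallest p in WT-O2 against WT-RA, genes that a sentence on a factor turns on, and the 3 genes most correlated with each factor. Alternatives were RLE and upper-quartile factors, no filter, DESeq2 1.42.0, Y-linked expression as a term, only the 2 groups compared, other fold thresholds and leaving out each mouse. The edgeR fit was first run on simulated lung data in which few genes changed, each by at least 2-fold. Smaller changes, and changes in a large share of genes as found in these lungs, were not simulated.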

Additional observations from a re-analysis of the deposited data

Results flagged for a closer look

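The estimates of Nkx2-1 pointed in opposite directions in the 2 genotypes without overlap between room air and hyperoxia lungs, at -0.1544 (log2) in WT mice and 0.07655 in GSDMD-KO mice. Neither passed the threshold, and the interaction was 0.23 (SE 0.11, adjusted p = 0.730 with edgeR's quasi-likelihood test).

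The estimates of Foxf1 pointed in opposite directions in the 2 tissues of GSDMD-KO mice, at -0.4442 (log2) in the lung and 0.8161 in the retina. The retina value did not pass the threshold, the difference between tissues was not tested, and the retinas held at most 13 counts of Foxf1. The tissues came from different mice with different oxygen exposures and ages at collection. In WT mice the signs were opposite too, at -0.86 (SE 0.12) in the lung and 1.10 (SE 0.97) in the retina. The WT retina groups overlapped.

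Tbx1 moved in opposite directions in the 2 genotypes of the lung without overlap, at 0.4782 (log2) in WT mice and -0.3501 in GSDMD-KO mice. Its interaction was -0.83 (SE 0.18), with an adjusted p of 0.282 from edgeR and 0.0152 from DESeq2.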

How the results depend on the processing

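The increases of Sox9 and Foxa2 and the decreases of Foxf1, Tbx2, Tbx4 and Tbx5 with hyperoxia kept their direction and their side of the threshold in both genotypes of the lung under all 18 alternatives. The number of factors called depended on the fold threshold. In WT lungs it was 1 at a fold change of at least 2, 4 at 1.5 and 6 with no fold threshold, and in GSDMD-KO lungs it was 1, 3 and 7. In WT retinas it was 0, 1 and 1. The share of all genes at a fold change of at least 1.5 was not counted, so the numbers at 1.5 have no background. Leaving out 1 mouse gave 1 to 1 called in each lung comparison with hyperoxia, 6 to 7 factors at an adjusted p under 0.1 in WT lungs and 6 to 8 in GSDMD-KO lungs. In WT retinas the number at an adjusted p under 0.1 was 0 with Y-linked expression as a term, 0 with only the 2 groups in the fit, and 0 to 1 when 1 mouse was left out.

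Estimates near 0 changed sign. With Y-linked expression as a term, the log2 fold change of Foxa1 was -0.020 in WT hyperoxia, -0.107 in KO-O2 against WT-O2 and -0.0392 in KO-RA against WT-RA, that of Sox9 was -0.0181 in KO-O2 against WT-O2 and -0.149 in GSDMD-KO retinas, that of Gata6 was 0.0643 in KO-RA against WT-RA, that of Tbx5 was 0.0919 in WT retinas and the interaction of Tbx2 was 0.000399. Foxa1 in KO-O2 against WT-O2 was -0.00824 with upper-quartile factors and -0.00361 with only 2 groups in the fit, and the interaction of Tbx2 was 0.00256 with no filter.

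With 1 mouse left out, Foxa1 ranged from -0.0441 to 0.0924 in WT hyperoxia, -0.124 to 0.0830 in GSDMD-KO hyperoxia, -0.0908 to 0.112 in KO-O2 against WT-O2, -0.0101 to 0.146 in KO-RA against WT-RA and -0.162 to 0.0449 in the interaction. Foxa2 ranged from -0.0884 to 0.124, -0.0288 to 0.212 and -0.203 to 0.0373 in the last 3 of these. Sox9 ranged from -0.126 to 0.147 and Tbx5 from -0.00723 to 0.135 in KO-O2 against WT-O2. Sox2 ranged from -0.128 to 0.116, Gata6 from -0.163 to 0.0578 and Tbx2 from -0.0230 to 0.190 in KO-RA against WT-RA, and the interactions of Tbx2 and Tbx4 from -0.131 to 0.0815 and -0.137 to 0.0461. In GSDMD-KO retinas, Sox9 ranged from -0.0183 to 0.135, Gata6 from -0.890 to 0.816 and Tbx5 from -0.0252 to 0.372. The cause was not tested for any of these changes.

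No paired analysis was possible because the labels give no shared replicate numbers, only mouse identifiers. With 3 mice per group, whole tissue and an uneven mix of sexes, small genotype differences could not be resolved, and p-values rest on the spread among 12 mice of a tissue.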
